A study of Mus musculus with 2 samples.

Results

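The genes described here encode 2 insulin-like growth factors (IGFs), their 2 receptors and 5 proteins that bind them: Igf1, Igf2, Igf1r, Igf2r, Igfbp2, Igfbp3, Igfbp4, Igfbp5 and Igfbp7. These 9 members were chosen by name out of 22401 features counted at E11.5 in 2 single-cell RNA libraries made from whole hearts of mouse embryos. Every member was present in both count tables. The control library came from embryos of genotype Hand2fx/+R26RmTmG/wt, which carry 1 floxed Hand2 allele and no Cre. The H2CKO library came from Nfatc1Cre/wtHand2fx/fxR26RmTmG/wt embryos, in which both Hand2 alleles are floxed. Both genotypes carry 1 copy of the mTmG reporter, which makes membrane Tomato until Cre acts and membrane GFP afterwards. Hand2 encodes a basic helix-loop-helix transcription factor. Nfatc1-Cre acts in the endocardium, the inner endothelial lining of the heart, whose descendants include part of the cushion mesenchyme. The labels do not give the number or sex of the embryos in a library. Each genotype has 1 library (n = 1), so no difference below has a replicate check, no p-value was computed, and the effects of Cre, of the floxed alleles and of the library itself cannot be told apart.

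IGF1 and IGF2 are secreted peptides that drive growth mainly by activating the receptor tyrosine kinase encoded by Igf1r, which signals through the PI3K-Akt and Ras-Erk pathways. Igf2r encodes the cation-independent mannose 6-phosphate receptor, which carries IGF2 to lysosomes and so removes it from the cell's surroundings. The binding proteins hold IGFs in the extracellular space and either restrain them or release them near the receptor, often after a protease has cut the binder. In the embryonic heart, IGF2 from the epicardium and endocardium is known as a growth signal for the myocardium. Igf2 and Igf2r are imprinted in the mouse, with Igf2 expressed from the paternal and Igf2r from the maternal allele in most tissues.

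Filtering left 8793 cells of the control and 11534 of H2CKO, whose median depth was 16223 and 13430 unique molecular identifiers (UMIs, 1 per captured transcript). In each of the 6 classes H2CKO cells had fewer genes and a higher mitochondrial share, with medians of 3807 and 2971 genes in endothelial-like cells and of 3.97% and 6.92% mitochondrial UMIs in cardiomyocyte-like cells, and the part of this in the ratios below was not tested. Cells fell into 13 clusters and 6 classes named from marker genes, formed without the 9 members. Erythroid-like, cardiomyocyte-like, mesenchymal-like, epicardial-like, endothelial-like and white blood cell-like cells numbered 2703, 3204, 1602, 830, 373 and 81 in the control and 4969, 4310, 1077, 323, 753 and 102 in H2CKO. All 12 fixed endothelial markers were detected in endothelial-like cells of both libraries. Endothelial-like cells of H2CKO held 11.3 CPM of Hand2 (UMIs of the gene scaled to a common total per cell group) against 231 in the control, and 1179 CPM of GFP against 16.1. In mesenchymal-like cells Hand2 was 180 CPM in the control and 47.0 in H2CKO, and GFP 14.98 and 794 CPM, whereas cardiomyocyte-like cells had 81.7 and 74.2 CPM of Hand2. Tomato was lower in H2CKO in endothelial-like cells, at 2.72 against 21.8 CPM, in mesenchymal-like cells, at 4.30 against 28.8 CPM, and also in epicardial-like (21.8 and 6.32 CPM) and cardiomyocyte-like cells (16.2 and 4.53 CPM, under the filter). The labels do not say which part of Hand2 is floxed, so 3′ counts that remain may or may not come from a deleted allele. Both libraries share 57 cell barcodes, 28 of them among kept cells. Red cells were set apart by library, since in 4 of the 5 erythroid-like clusters one library had at most 40 cells. RNA of 12 erythroid marker genes was also higher in endothelial-like and epicardial-like cells of H2CKO, at 45245 and 44825 CPM against 16773 and 11810 in the control. The libraries also differed by gene span: features under 10 kb had a median log2 ratio of H2CKO over control of 0.07 in endothelial-like cells, and those over 100 kb a median of −0.62.

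Differences are given as the log2 ratio of H2CKO CPM plus 5 over control CPM plus 5, so negative values are lower in H2CKO. A gene was compared when the library with the higher level held at least 20 CPM and 20 UMIs, and was called at a 2-fold difference or more on that scale. A fold printed with an interval is the plain ratio of the CPM values with nothing added, so for low genes it is larger than the log2 ratio beside it would give. Intervals are 95% and cover counting error only. The count is per 3′ end captured, so it is not scaled by gene length, and levels are compared between cell classes and libraries, not between genes.

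All 9 members have an entry in the RefSeq promoter table (GRCm38.p6), with 13 start sites. The 250 bases before a start site are shown for Igf2r, Igfbp3 and the first start of Igfbp2, because these 3 genes and Igf2 were the members called in endothelial-like or mesenchymal-like cells below. Igf2 is left out since the RefSeq table lists 4 starts for it, which 3′ counts cannot tell apart. Capitals mark each CANNTG hexamer, the E-box core bound by basic helix-loop-helix factors, which reads the same on both strands. All 3 are written 5′ to 3′ on the gene's own strand.
Igf2r, chr17:12769707-12769956, minus strand: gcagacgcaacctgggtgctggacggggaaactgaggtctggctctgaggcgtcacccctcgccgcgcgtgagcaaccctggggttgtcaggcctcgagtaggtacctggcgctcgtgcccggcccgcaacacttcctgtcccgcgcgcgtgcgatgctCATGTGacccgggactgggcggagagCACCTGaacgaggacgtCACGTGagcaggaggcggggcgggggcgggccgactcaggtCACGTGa
Igfbp3, chr11:7213924-7214173, minus strand: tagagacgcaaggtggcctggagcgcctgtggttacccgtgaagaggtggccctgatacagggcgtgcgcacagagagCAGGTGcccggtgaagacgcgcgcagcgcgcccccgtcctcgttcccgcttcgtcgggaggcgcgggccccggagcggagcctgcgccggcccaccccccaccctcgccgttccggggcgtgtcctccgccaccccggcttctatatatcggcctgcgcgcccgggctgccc
Igfbp2, chr1:72824230-72824479, plus strand: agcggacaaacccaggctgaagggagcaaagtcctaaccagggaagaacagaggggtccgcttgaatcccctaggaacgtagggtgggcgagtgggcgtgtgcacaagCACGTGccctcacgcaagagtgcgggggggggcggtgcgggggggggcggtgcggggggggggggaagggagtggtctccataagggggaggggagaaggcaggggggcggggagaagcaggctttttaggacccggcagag
The Igf2r window holds 4 CANNTG hexamers and the other windows shown hold 1 each. Of the 13 member windows 8 hold at least 1. The share is 66.2% over all 32851 windows in RefSeq's list, with a median of 1 per window. A match is a description of the letters only.

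In the control heart Igf1 was more restricted to certain classes than Igf2, and mesenchymal-like and endothelial-like cells held both ligands. Igf1 was highest in mesenchymal-like cells, at 517.5 CPM (interval 508 to 527), and next in endothelial-like cells, at 267 CPM (255 to 281). Mesenchymal-like cells held 79.7% of all Igf1 UMIs of the kept control cells. Igf1 was 37.7 CPM in epicardial-like and 10.9 CPM in cardiomyocyte-like cells, and the interval of the latter overlapped that of white blood cell-like cells at 12.6 CPM. Igf2, in contrast, was detected in 95.7% to 100% of control cells of the 4 classes other than blood. Its level was highest in endothelial-like cells, at 3005 CPM (2962 to 3049), followed by epicardial-like cells at 1590 CPM, mesenchymal-like cells at 1522 CPM and cardiomyocyte-like cells at 852 CPM. Cardiomyocyte-like cells, the most numerous of these, still held 40.8% of the Igf2 UMIs. The order of the 6 classes was the same in H2CKO, and no neighbours in it had overlapping intervals in either library.

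Both receptors were found in all 4 solid-tissue classes. Igf1r ranged over the 4 solid-tissue classes of the control from 79.8 CPM in endothelial-like to 140 CPM in epicardial-like cells, with overlapping intervals for cardiomyocyte-like (106 CPM) and mesenchymal-like cells (101 CPM). In H2CKO the intervals of epicardial-like (82.5 CPM) and cardiomyocyte-like cells (74.5 CPM) overlapped. Igf2r was highest in control endothelial-like cells, at 959 CPM (935 to 984), then in cardiomyocyte-like cells at 522 CPM, mesenchymal-like cells at 352 CPM and epicardial-like cells at 258 CPM. In H2CKO that order changed: cardiomyocyte-like cells led at 324 CPM, endothelial-like cells followed at 186 CPM, and the intervals of epicardial-like (143 CPM) and mesenchymal-like cells (142 CPM) overlapped.

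The binders differed in where most of their UMIs lay. In the control, 84.0% of Igfbp2 UMIs lay in cardiomyocyte-like cells (81.4 CPM), 77.1% of Igfbp7 UMIs in mesenchymal-like cells (379 CPM) and 80.2% of Igfbp3 UMIs in epicardial-like cells (40.7 CPM). Igfbp4 was highest in endothelial-like cells, at 526 CPM, with 175 CPM in epicardial-like and 169 CPM in mesenchymal-like cells, whose intervals overlapped, and 13.6 CPM in cardiomyocyte-like cells. Igfbp5 was high in 3 classes of the control, with 524 CPM in endothelial-like, 452 CPM in epicardial-like and 330 CPM in cardiomyocyte-like cells. In H2CKO, Igfbp3 changed its main source, with 83.9% of its UMIs in endothelial-like and 8.43% in epicardial-like cells. That share also depends on how many cells of each class were captured, and the libraries differ in that.

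**Figure D1:**
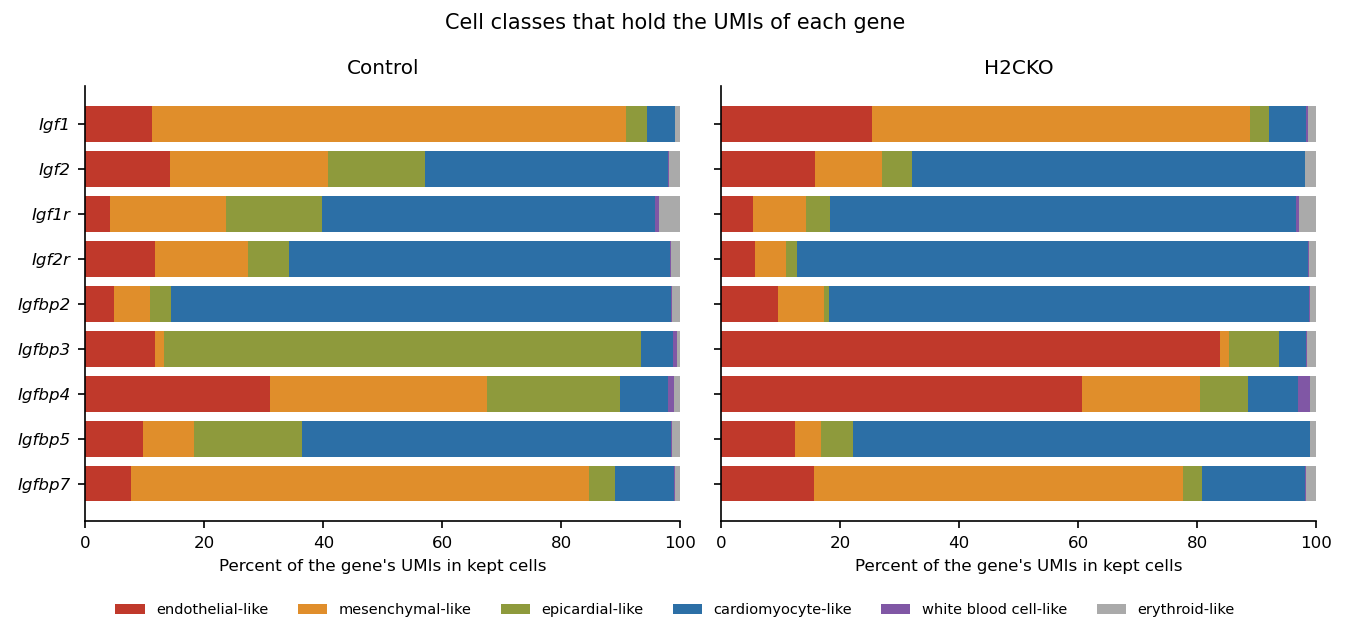
Share of each gene's UMIs in kept cells (horizontal axis, percent) held by each of the 6 cell classes, for the control (left) and H2CKO (right). Igfbp3 UMIs lie mostly in epicardial-like cells in the control (80.2%) and mostly in endothelial-like cells in H2CKO (83.9%).

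**Figure D2:**
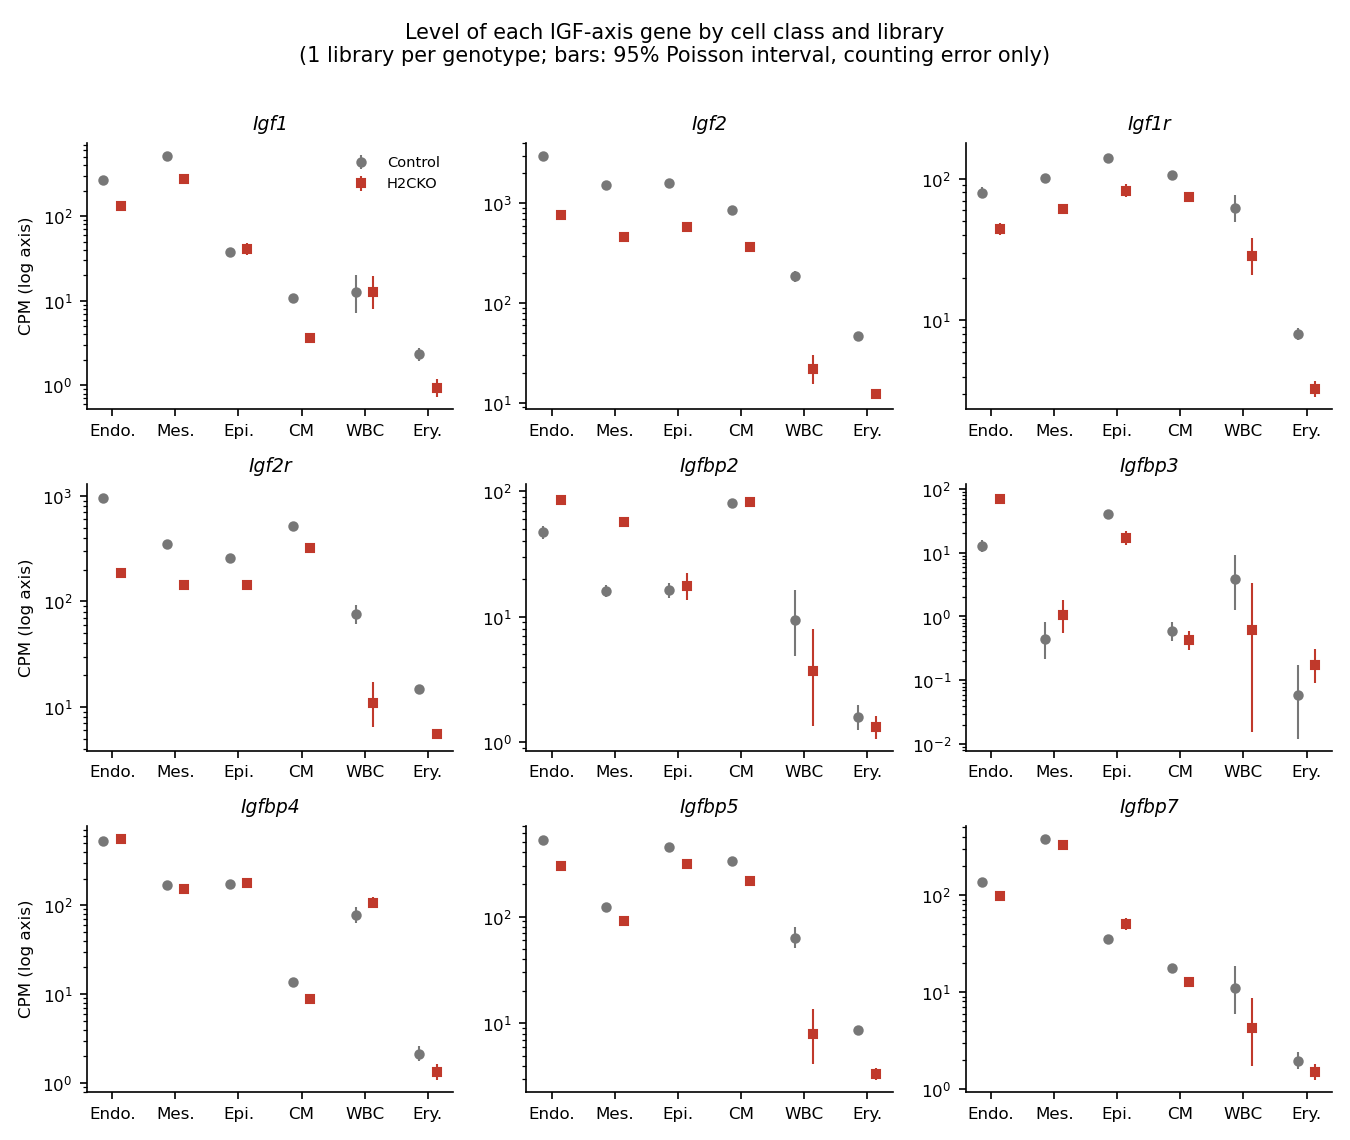
Level of each gene (vertical axis, CPM, log scale) in endothelial-like (Endo.), mesenchymal-like (Mes.), epicardial-like (Epi.), cardiomyocyte-like (CM), white blood cell-like (WBC) and erythroid-like (Ery.) cells of the control (grey circles) and H2CKO (red squares). Bars are 95% Poisson intervals of the count; the red squares of Igf2 lie below the grey circles in all 6 classes.

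Erythroid-like cells had the lowest level of every member in both libraries and are taken here as the background level of free RNA. They held at most 14.9 CPM of any member in the control except Igf2, at 46.6 CPM, and at most 5.54 CPM in H2CKO except Igf2, at 12.2 CPM. An Igf2 UMI was found in 56.8% of control and 15.3% of H2CKO erythroid-like cells, whose median depth was 18351 and 13220 UMIs, and in 21.6% and 6.30% once each cell was thinned to 5000 UMIs. These shares were taken as background; whether red cells make Igf2 RNA themselves was not tested.

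The most widespread difference was in Igf2, the fetal growth factor, which was lower in H2CKO and past 2-fold in all 6 classes, including erythroid-like cells taken as background and the few white blood cell-like cells. In endothelial-like cells Igf2 was 3005 CPM in the control and 759 CPM in H2CKO, a log2 ratio of −1.98 and a plain fold of 3.96 lower (3.85 to 4.07). Mesenchymal-like cells had 1522 and 457 CPM (−1.72), epicardial-like cells 1590 and 580 CPM (−1.45) and cardiomyocyte-like cells 852 and 367 CPM (−1.20). Beside these values, Hand2 was 125 and 111 CPM and GFP 9.06 and 64.3 CPM in epicardial-like cells, and in cardiomyocyte-like cells Hand2 was 81.7 and 74.2 CPM and GFP 10.1 and 9.80 CPM. The part of Hand2 in the Igf2 result was not tested. In erythroid-like cells the log2 ratio was −1.59. With the erythroid-like level of each library taken off, the call stood in each of the 4 solid-tissue classes. Of the features compared, 0.457% had a lower ratio than Igf2 in endothelial-like cells, 0.153% in mesenchymal-like, 0.411% in epicardial-like and 0.234% in cardiomyocyte-like cells. Igf2 spans 16.1 kb on chromosome 7 (142650766 to 142666816, minus strand, GRCm38) and overlaps Gm49394, Mir483 and, on the other strand, Igf2os, and reads of these genes may not be separable from its own.

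Igf2r, which removes IGF2, had its lowest ratio among the 4 solid-tissue classes in endothelial-like cells. Against 959 CPM (935 to 984) in the control stood 186 CPM (178 to 195) in H2CKO, 5.15-fold lower (4.89 to 5.44), with a log2 ratio of −2.33. The share of endothelial-like cells with an Igf2r UMI was 98.1% in the control and 76.4% in H2CKO, and 94.9% and 55.5% after thinning to 5000 UMIs, against 6.44% and 2.61% of thinned erythroid-like cells. Of the features compared, 0.152% had a lower ratio in this class. In the same cells 6 endocardial markers summed to 2378 CPM in the control and 963 in H2CKO, and 12 mesenchymal markers to 2313 and 484. The part of a different mix of endothelial cells in the Igf2r result was not tested. The ratio was smaller in size in the other 3 of these: 352 and 142 CPM in mesenchymal-like cells (−1.28), 258 and 143 CPM in epicardial-like cells (−0.83) and 522 and 324 CPM in cardiomyocyte-like cells (−0.68). The last 2 of these are not past 2-fold. The counting intervals of the fold do not overlap between endothelial-like cells (4.89 to 5.44) and mesenchymal-like cells (2.35 to 2.61), but with 1 library per genotype the difference between classes was not tested. Igf2r spans 87.3 kb on chromosome 17 (12682406 to 12769664, minus strand), a length at which most genes had a negative ratio. Once the trend on span was removed, the log2 ratio was −2.02 in endothelial-like and −0.94 in mesenchymal-like cells, so the mesenchymal call is lost. The antisense gene Airn lies within the Igf2r locus, and the sources used here do not say whether counting used strand.

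**Figure D3:**
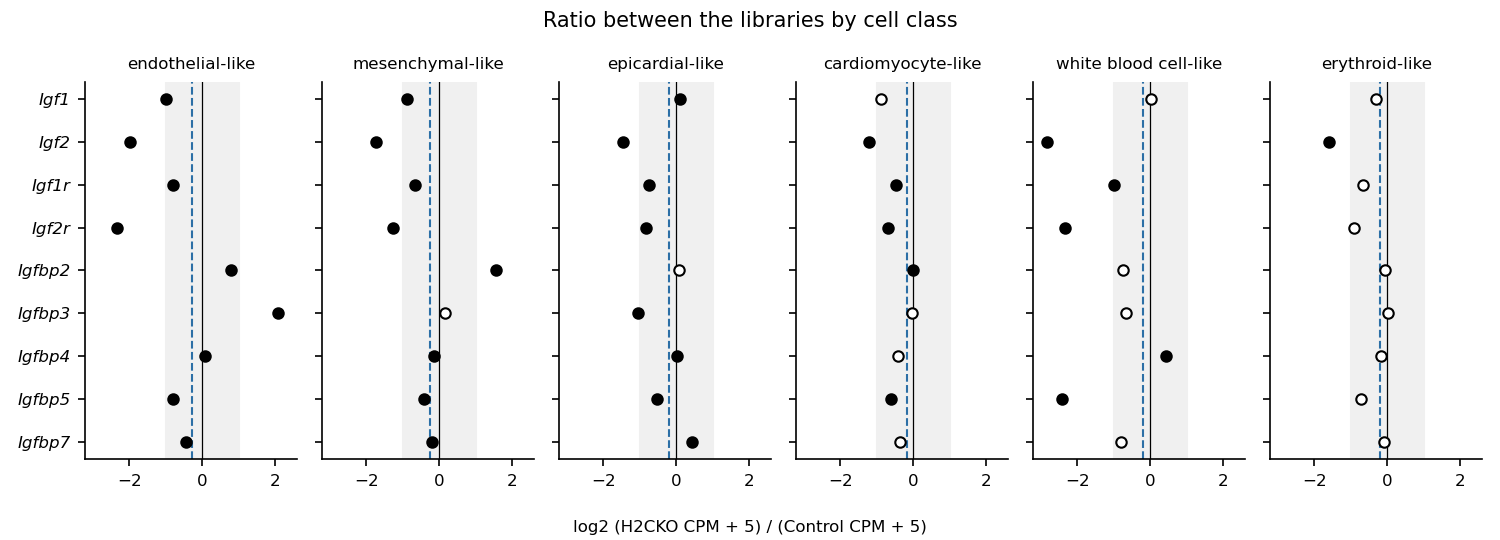
Log2 ratio of H2CKO over control (horizontal axis) of each gene in the 6 classes. Filled circles passed the filter on low levels, open circles did not, the grey band marks less than a 2-fold difference and the dashed line is the median of all features compared; Igf2 lies left of the band in every class, and Igfbp3 lies right of it in endothelial-like cells and left of it in epicardial-like cells.

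Igf1 and Igf1r were lower in most classes without passing 2-fold. In mesenchymal-like cells Igf1 was 517.5 CPM in the control and 277 CPM in H2CKO (−0.89), and in endothelial-like cells 267 and 132 CPM (−0.99), just short of the call, which 2 of 16 alternatives reached. Epicardial-like cells had 37.7 and 41.0 CPM of Igf1 with overlapping intervals, and the log2 ratio there went from 0.11 to −0.74 with all deposited cells and no doublet removal. Igf1r, the signalling receptor, had log2 ratios of −0.79 in endothelial-like, −0.67 in mesenchymal-like, −0.73 in epicardial-like and −0.48 in cardiomyocyte-like cells. At 281 kb Igf1r has the longest span of the 9, and without the span trend its ratios were −0.45, −0.26, −0.30 and −0.26 in the same order.

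Igfbp3 moved in opposite directions in endothelial-like and epicardial-like cells. Its endothelial-like level in the control, 12.9 CPM (10.2 to 16.0), compares with 69.8 CPM (64.6 to 75.4) in H2CKO, which is 5.43-fold higher (4.30 to 6.95) as a plain ratio and a log2 ratio of 2.07 with 5 CPM added to both levels. An Igfbp3 UMI was found in 9.38% of endothelial-like cells of the control and 26.2% of those of H2CKO, and in 3.12% and 15.7% after thinning, against 0.0762% and 0.125% of thinned erythroid-like cells. Epicardial-like cells, the main source in the control, held 40.7 CPM there (37.4 to 44.3). The H2CKO level was 16.9 CPM (13.1 to 21.5), 2.40-fold lower as a plain ratio (1.86 to 3.15, from 544 and 67 UMIs). With 5 CPM added, the log2 ratio was −1.06, barely past 2-fold. That call is less steady, since it held in 9 of 16 alternatives and the ratio was −0.44 with all deposited cells and no doublet removal. The epicardial-like cells of H2CKO also held more cardiomyocyte marker RNA (7384 CPM summed over 12 genes against 4102) and less epicardial marker RNA (2641 against 3854), and the part of these in the result was not tested. Mesenchymal-like and cardiomyocyte-like cells had at most 1.05 CPM of Igfbp3. The gene spans 7.84 kb on chromosome 11 (7206086 to 7213923, minus strand), 3.54 kb from Igfbp1.

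Igfbp2 was higher in H2CKO in the mesenchymal-like class. There the control held 16.0 CPM of Igfbp2 (14.4 to 17.7) and H2CKO 56.6 CPM (52.4 to 61.2), which is 3.54-fold higher (3.11 to 4.04) as a plain ratio and a log2 ratio of 1.55 with 5 CPM added. An Igfbp2 UMI was found in 16.9% and 30.6% of mesenchymal-like cells, and in 7.63% and 20.5% after thinning, against 0.876% and 0.668% of thinned erythroid-like cells. Endothelial-like cells had 47.1 and 84.6 CPM, a log2 ratio of 0.78 that is past 2-fold only in 2 of 16 alternatives, and in H2CKO their interval overlapped that of cardiomyocyte-like cells. In cardiomyocyte-like cells, its main source, the libraries hardly differed, with 81.4 CPM (79.1 to 83.6) and 81.8 CPM (79.9 to 83.8), a ratio of 1.01 (0.969 to 1.04). Igfbp2 spans 28.0 kb on chromosome 1 (72824503 to 72852474, plus strand) and lies 5.46 kb from Igfbp5, which is on the other strand.

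The other 3 binders did not pass 2-fold in any solid-tissue class. Igfbp5 was lower in all 4, with 524 and 299 CPM in endothelial-like cells (−0.80), 452 and 312 in epicardial-like (−0.53), 330 and 215 in cardiomyocyte-like (−0.61) and 124 and 90.6 in mesenchymal-like cells (−0.43). The cardiomyocyte-like ratio was −0.03 with cells kept only from 1500 genes and up to 5% mitochondrial UMIs. The direction of Igfbp4 turned with the settings in the 3 solid-tissue classes where it passed the filter, with 526 and 557 CPM in endothelial-like, 169 and 153 in mesenchymal-like and 175 and 179 in epicardial-like cells. Igfbp7, a binder of low affinity for IGFs, was 379 and 329 CPM in mesenchymal-like cells (−0.20), 137 and 98.7 in endothelial-like cells (−0.46) and 35.5 and 50.1 in epicardial-like cells (0.44). Its direction turned to 0.20 in endothelial-like cells under the stricter cell filter, to −0.06 in epicardial-like cells with no doublet removal and to 0.06 in mesenchymal-like cells without the span trend. Igfbp7 overlaps Polr2b on the opposite strand, which is also among the counted features.

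Counted by class, 2 of the 9 members compared in endothelial-like cells were called lower, where 7.63% of all 6568 features compared were, and 1 was called higher, where 0.868% were. In mesenchymal-like cells 2 of 8 were lower (background 3.57% of 6523) and 1 higher (0.46%), and in epicardial-like cells 2 of 8 were lower (4.74% of 6333) and 0 higher (1.28%). In cardiomyocyte-like cells 1 of 5 was lower (0.559% of 5549) and 0 higher (0.18%), and in erythroid-like cells the only member compared was lower (7.68% of 2006), with 0 higher (0.349%). The median of all features compared was −0.28 in endothelial-like, −0.24 in mesenchymal-like, −0.20 in epicardial-like and −0.16 in cardiomyocyte-like cells. Over the 5 classes with at least 100 cells in each library, 31 of 45 member and class pairs passed the filter, of which 8 were called lower and 2 higher. Igf2 alone makes up 5 of the 8, with erythroid-like cells among them.

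White blood cell-like cells had lower Igf2 (185 and 21.9 CPM), Igf2r (75.4 and 10.96 CPM) and Igfbp5 (63.6 and 7.91 CPM) in H2CKO, 3 of 5 members compared, where 9.8% of 5951 features were lower and 1.31% higher. This rests on 81 and 102 cells. Summed cardiomyocyte markers in this class were 5129 CPM in the control and 1680 in H2CKO, mesenchymal markers 226 and 26.8 CPM, and platelet markers 2569 and 646 CPM, with the white blood cell markers themselves at 3721 and 3578 CPM. With each cell named by its own markers, Igf2r and Igfbp5 had positive log2 ratios of 0.37 and 1.30, and Igf2 lost its call at −0.67. The part of RNA from other cells in this result was not tested.

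Endothelial-like cells were divided further, without the members, into 4 sub-clusters. Sub-cluster 1 was led by Wnt4, Pthlh and Stmn2 (211 control and 253 H2CKO cells), sub-cluster 2 by Nr2f2, Lbp and Emcn (84 and 299), and sub-cluster 3 by Kcne3, Fabp4 and histone genes of S phase (72 and 168), with Igfbp3 itself second among its leading genes. Sub-cluster 4 held 6 and 33 haemoglobin-rich cells and is left out of what follows. The resolution of this division was chosen after the data had been seen.

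The rise of Igfbp3 lay in sub-clusters 2 and 3. Igfbp3 was 7.77 CPM in the control and 54.8 CPM in H2CKO in sub-cluster 2 (2.23, from 8 and 170 UMIs), and 45.1 and 162 CPM in sub-cluster 3 (1.74). In sub-cluster 1 it was 2.78 and 3.03 CPM, from 10 and 9 UMIs, too few to compare. The transcript was concentrated in few cells: in H2CKO, 31.1% of cells of sub-cluster 2 and 51.2% of sub-cluster 3 had a UMI, and the tenth of cells with the most UMIs held 61.8% and 65.1% of them. Igfbp2 was also called in these 2 sub-clusters, at 50.5 and 114 CPM in sub-cluster 2 (1.10), 52.5 and 114 CPM in sub-cluster 3 (1.06) and was 45.0 and 37.0 CPM in sub-cluster 1 (−0.25). Differences between these sub-clusters were not tested. Igfbp7 was mainly a gene of sub-cluster 1, with 210 and 278 CPM there (0.39), against 36.9 and 14.5 CPM in sub-cluster 2 (−1.10) and 30.3 and 13.6 CPM in sub-cluster 3 (−0.92). The ratio of the whole class, −0.46, thus has the opposite sign to that of the sub-cluster with 757 of its 844 control UMIs.

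Igf2 and Igf2r, by contrast, were lower in each of the 3. Igf2 had log2 ratios of −1.88, −1.52 and −1.75, and Igf2r went from 1131 to 285 CPM (−1.97), from 728 to 162 CPM (−2.13) and from 740 to 132 CPM (−2.44) in sub-clusters 1, 2 and 3. In all, sub-cluster 1 had 0 of 8 members higher (background 0.734%) and 2 lower (3.24%), sub-cluster 2 had 2 of 9 higher (1.71%) and 3 lower (11.4%), and sub-cluster 3 had 2 of 9 higher (1.25%) and 2 lower (8.78%). The summed level of 6 markers of coronary and other vascular endothelium was higher in the same sub-clusters as Igfbp2 and Igfbp3. It was 23.3 and 266 CPM in sub-cluster 2, 106 and 326 in sub-cluster 3, and 57.5 and 61.3 in sub-cluster 1. Cldn5 and Sox17 were its largest parts in sub-clusters 2 and 3, at 8.74 and 128 CPM and at 8.74 and 95.1 CPM in sub-cluster 2. Apln was not higher in either, at 0.97 and 0.64 CPM in sub-cluster 2 and 3.69 and 3.23 CPM in sub-cluster 3. Of the 6 endocardial markers, Npr3 and Tmem108 were lower in each of the 3, with log2 ratios of −1.28 and −1.68, −2.16 and −2.71, and −2.33 and −3.09 in sub-clusters 1, 2 and 3. Ratios in sub-clusters 1, 2 and 3 were −0.83, −1.01 and −1.07 for Nfatc1, and −0.52, −1.55 and −1.51 for Hapln1. Cdh11 had −1.73, −1.27 and −1.59, and Plxnd1 had −0.84, −0.08 and −0.24, so the 6 did not all differ alike. The part of the cell mix within sub-clusters in the ratios of Igf2, Igf2r, Igfbp2, Igfbp3 and Igfbp7 was not tested.

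Among mesenchymal-like cells, 4 sub-clusters were found besides a haemoglobin-rich one of 24 control and 72 H2CKO cells. The class values above include the haemoglobin-rich cells, both here and in endothelial-like cells. The GFP reporter marked 2 of the 4. Sub-cluster 1 (Btn1a1, Nkain4 and Notum, 514 and 354 cells) and sub-cluster 2 (cell cycle genes such as Top2a, 391 and 257 cells) had 1475 and 1432 CPM of GFP in H2CKO. Sub-cluster 3 (Stmn4, L1cam, 371 and 184 cells) and sub-cluster 4 (Penk, Fbln5, Hand1, 302 and 210 cells) had 47.2 and 98.8 CPM.

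Igfbp2 was higher in the reporter-rich sub-clusters. The gene went from 21.9 CPM in the control to 108 CPM in H2CKO in sub-cluster 1 (log2 ratio 2.07 with 5 CPM added, plain ratio 4.92, 3.97 to 6.12) and from 19.5 to 75.7 CPM in sub-cluster 2 (1.72, plain ratio 3.88, 3.10 to 4.88). It was 11.55 and 15.7 CPM in sub-cluster 3, under the filter, and 9.82 and 21.2 CPM in sub-cluster 4 (0.82). The share of cells with an Igfbp2 UMI was 17.7% and 39.3% in sub-cluster 1 and 11.6% and 11.4% in sub-cluster 3. Igfbp2 is also among the 10 leading genes of sub-cluster 1, although it took no part in forming it.

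Igfbp5 was called lower in sub-cluster 3 alone of the 4, with 174 and 69.2 CPM in sub-cluster 3 (−1.27) and 122 and 59.6 CPM in sub-cluster 4 (−0.97), against 119 and 153 CPM in sub-cluster 1 (0.36) and 103 and 95.6 CPM in sub-cluster 2 (−0.10). Igfbp7 was 290 and 190 CPM in sub-cluster 1 (−0.60) and 311 and 208 in sub-cluster 2 (−0.57), but 501 and 555 CPM in sub-cluster 3 (0.15) and 468 and 564 in sub-cluster 4 (0.27). The class ratios of both binders, −0.43 and −0.20, thus cover sub-clusters with ratios of different sign. The ligand Igf1 was lower throughout, with log2 ratios of −0.89, −0.99, −0.75 and −0.58 in sub-clusters 1 to 4, and Igf2 had −1.97, −1.79, −1.41 and −1.37. Sub-clusters 1 and 2 each had 1 of 8 members higher (background 0.45% and 0.488%) and 2 lower (6.59% and 4.47%), sub-cluster 3 had 0 of 7 higher (0.262%) and 3 lower (3.84%), and sub-cluster 4 had 0 of 8 higher (0.166%) and 1 lower (1.83%). Differences between sub-clusters were not tested.

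**Figure D4:**
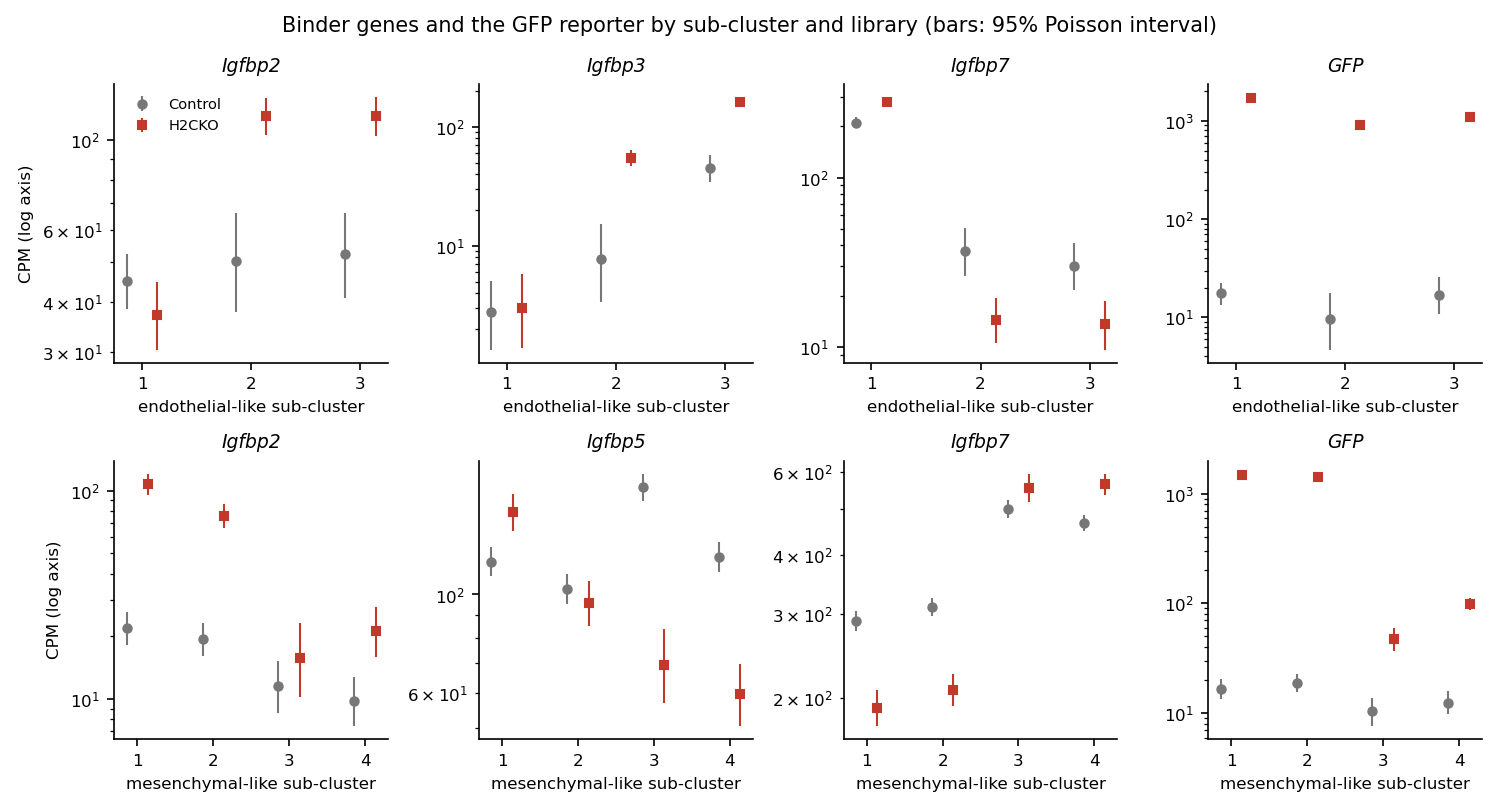
Level (vertical axis, CPM, log scale) of Igfbp2, Igfbp3, Igfbp7 and GFP in endothelial-like sub-clusters 1 to 3 (top) and of Igfbp2, Igfbp5, Igfbp7 and GFP in mesenchymal-like sub-clusters 1 to 4 (bottom), for the control (grey circles) and H2CKO (red squares), with 95% Poisson intervals. Igfbp2 of H2CKO lies above the control in endothelial-like sub-clusters 2 and 3 and in mesenchymal-like sub-clusters 1, 2 and 4, with overlapping intervals in mesenchymal-like sub-cluster 3.

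Cells of the H2CKO library were also split by whether they held a GFP UMI, which is only a rough guide to lineage. A cell with no GFP UMI may still have had active Cre, and a GFP UMI also occurred without Cre, in 17.2% of control mesenchymal-like and 21.7% of control endothelial-like cells, against 37.7% and 70.4% in H2CKO. Of mesenchymal-like cells, 406 had a GFP UMI and 671 had none, with median depths of 9467 and 9722 UMIs. Igfbp2 was 85.0 CPM (76.5 to 94.2) with and 39.4 CPM (35.0 to 44.3) without a GFP UMI, and Igfbp7 242 and 382 CPM. Igfbp2 was thus higher on either side of this split than in the control class, at 16.0 CPM (14.4 to 17.7). Igf2 was 396 and 494 CPM and Igf2r 116 and 158 CPM, so both were lower on either side of this split than the 1522 and 352 CPM of the control class. In endothelial-like cells, 530 with and 223 without a GFP UMI, Igfbp2 was 74.3 and 115 CPM, Igfbp7 118 and 41.0 CPM, and Igfbp3 72.9 and 60.9 CPM. All these cells come from 1 library, so the values have no replicate error.

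Cardiomyocyte-like cells comprised a cluster led by Nppa, Cited1 and Nppb that also has Myl2 among its top genes (cluster 1, 1521 and 3404 cells), a cluster led by Rspo3, Isl1, Bmp4 and Sln (cluster 10, 368 and 489), a cluster led by Gal, Bmp2, Rspo3 and Tbx3 (cluster 12, 208 and 180), and a shallow cluster with a median of 1574.5 UMIs (cluster 5, 1107 and 237). The libraries thus hold different shares of the class in cluster 5. There Igf2 was 1214 and 377 CPM (−1.67), whereas Igf2r was 129 and 194 CPM (0.57), opposite in sign to the class ratio of −0.68. Igfbp5 was 139 and 115 CPM in cluster 1, 996 and 647 in cluster 10 and 1126 and 1504 in cluster 12, so its highest level lay in cluster 12 in both libraries.

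Igfbp2 was level in cluster 1, at 89.2 and 89.5 CPM, and 28.1 and 38.7 CPM in cluster 10 (0.40, not past 2-fold), but in cluster 12 it went from 128 CPM in the control to 16.2 CPM in H2CKO, 7.88-fold lower as a plain ratio (5.86 to 10.8, from 544 and 48 UMIs), with a log2 ratio of −2.65 once 5 CPM were added. In that cluster 62.5% of control and 19.4% of H2CKO cells had an Igfbp2 UMI. Of 34 pathway genes compared there, 2 were lower (1.9% of all features) and 1 higher (1.29%), with a median log2 ratio of −0.16 against −0.05 over all features. The binder homologue Igfbpl1 was lower, at 79.3 and 22.3 CPM (−1.63), as was the adaptor Grb14, at 112 and 52.8 CPM (−1.02), while the protease Htra1, which can cut binders, was higher at 21.4 and 59.9 CPM (1.30). Other leading genes of cluster 12 differed as well: Gal was 57.2 and 336 CPM, Clu 218 and 733.5 CPM and Myl1 1511 and 669 CPM, whereas Tbx3 was 86.9 and 106 CPM and Bmp2 237 and 310 CPM. Summed cardiomyocyte markers were 71391 and 63887 CPM and mesenchymal markers 391 and 464 CPM. Whether the cluster holds the same mix of cells in both libraries was not tested. In cluster 12, 0 of 5 members were higher (1.29%) and 2 lower (1.9%), the other being Igf2 (861 and 240 CPM). In cluster 1, 0 of 5 were higher (0.325%) and 1 lower (0.723%), and in cluster 10, 0 of 8 higher (0.171%) and 1 lower (1.64%), in both cases Igf2.

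**Figure D5:**
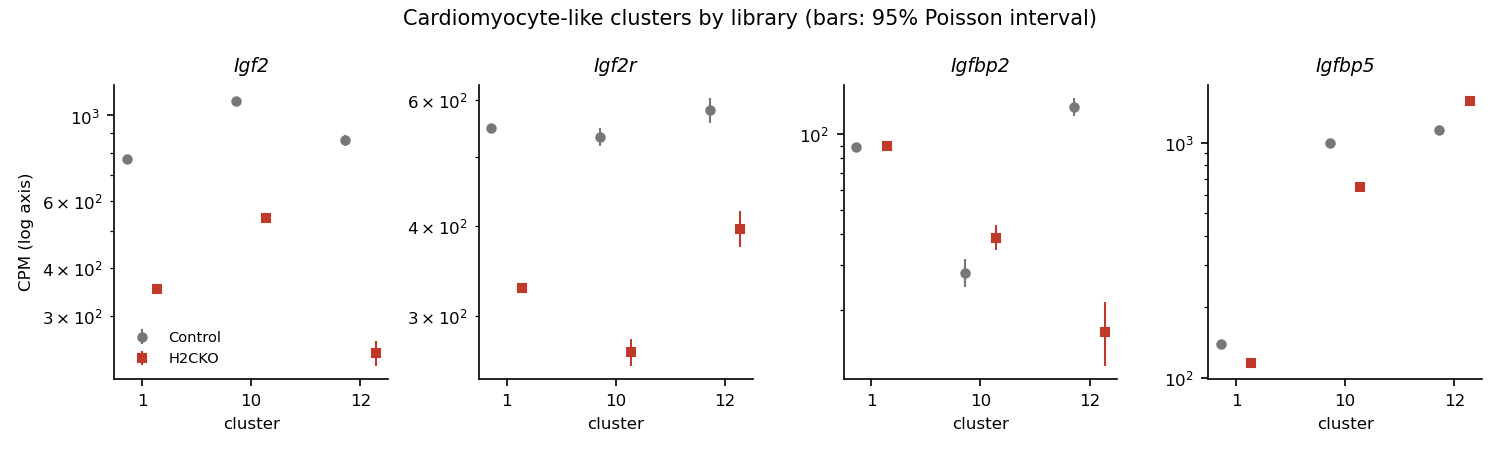
Level (vertical axis, CPM, log scale) of Igf2, Igf2r, Igfbp2 and Igfbp5 in cardiomyocyte-like clusters 1, 10 and 12 of the control (grey circles) and H2CKO (red squares), with 95% Poisson intervals. Igfbp2 is level in cluster 1 and 128 against 16.2 CPM in cluster 12; the shallow cluster 5 is not drawn.

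The rest of the pathway was described with 54 further genes in 6 groups, none of which was called higher in any of the 6 classes. In endothelial-like cells 4 of 33 compared were lower, against 7.63% of all features: Gab1 (30.8 and 11.7 CPM, −1.10) and the imprinted Grb10 (426 and 198 CPM, −1.09), which are receptor adaptors, Htra1 (71.2 and 32.0 CPM, −1.04), and Igf2bp2 (105 and 49.3 CPM, −1.01), whose protein binds Igf2 mRNA. Mesenchymal-like cells had 2 of 33 lower (3.57% of all features), the protease gene Adamts1 (112 and 47.6 CPM, −1.15) and Sos1 (30.9 and 11.8 CPM, −1.09), which encodes an activator of Ras. Sos1 was the only 1 of 31 lower in epicardial-like cells (35.8 and 9.87 CPM, −1.46), where 4.74% of all features were, and 0 of 30 passed in cardiomyocyte-like cells (0.559%). White blood cell-like cells had 3 of 27 lower (9.8%), which were Igf2bp2, Pik3r1 and Pdpk1, and erythroid-like cells 1 of 8 (7.68%), which was Grb10 (46.4 and 19.5 CPM, −1.07). The median log2 ratio of the pathway genes compared was −0.56, −0.44, −0.33 and −0.29 in endothelial-like, mesenchymal-like, epicardial-like and cardiomyocyte-like cells. Beside them stand the medians of all features given above. The Ras and Erk genes were closest to those medians, at −0.46, −0.30, −0.18 and −0.15, and the 3 genes for Igf2 RNA-binding proteins were further below, at −0.87, −0.80, −0.81 and −0.42. These 3 were the lowest group only in epicardial-like cells. Receptor adaptors had −0.91 in endothelial-like cells, and binder proteases and their inhibitors −0.81 in mesenchymal-like cells. The group of other ligands, receptors and binders had −0.48 in cardiomyocyte-like cells. The protease gene Pappa (21.2 and 11.52 CPM in endothelial-like, 36.7 and 18.9 CPM in mesenchymal-like cells) and the insulin receptor gene Insr (20.03 and 11.9 CPM in endothelial-like cells) did not pass 2-fold.

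Across the 22 pairs of cluster and library with at least 50 cells, the features most like each member were sought among 8654, by Pearson correlation of log2 levels. These points share libraries, depth and gene span effects, so the correlations are descriptions. Igf1 was most like Mecom (r = 0.97), Serpinf1 (0.95) and Igfbp7 (0.95), and Igfbp7 in turn was most like Mecom (0.97) and Igf1 (0.95), followed by Tcim (0.94). Igf2 was most like Nckap1 (0.98), Slc25a24 (0.96) and Paip1 (0.96), and Igf2r most like Hmgcs1, Nckap1 and Lamc1 (each 0.98). For Igf1r these were Otud7b, Ppp1r12a and Bbx (each 0.98), for Igfbp4 Tagln2, Lipa (each 0.97) and Lpar6 (0.96), and for Igfbp5 Tmem47 (0.97), Ginm1 (0.96) and Mast4 (0.95). The highest correlations were lower for the other 2 binders: Igfbp2 was most like Aldh5a1 (0.93), Dgkk and Ift122 (each 0.91), and Igfbp3 most like Car4, 1110032F04Rik (each 0.87) and Shroom2 (0.85).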

How the data were processed

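Each library's UMI counts per cell and gene were used as the authors deposited them, as raw counts. Per the submitters' processing notes, Cell Ranger 5.0.1, Seurat 4 and GRCm38.p6 were used; how barcodes were called and the annotation are not given in the sources used here. The deposited embedding coordinates, a score with no unit, served only to mark the authors' subset (5408 control and 6232 H2CKO cells) for an alternative. The tables held 14114 and 13885 barcodes with 195825720 and 201477256 UMIs. Of the features, 22285 matched a symbol in GENCODE vM21 (GRCm38), which also gave spans.

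A cell was kept from 500 genes upward if mitochondrial UMIs made up no more than 10%. Scrublet (scanpy 1.11.5) was run on each library for doublets. Its automatic threshold marked 1048 control cells (10.7% removed) and 0 in H2CKO, so the top 5% there (607) were removed: doublet removal differed between the libraries. The 2000 most variable genes, without the members, the pathway genes, Hand2, reporters, haemoglobin, mitochondrial and sex-linked genes, were scaled within each library. Then 30 principal components, 15 neighbours from each library and Leiden clustering (leidenalg 0.10.2, resolution 1; sub-clusters 0.6) followed. Classes carry the ending "-like" and rest on marker lists.

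UMIs were summed per class and library. Intervals are exact Poisson, Clopper-Pearson or conditional (scipy 1.17.1). With 1 library per genotype no test was run. The code was tested on simulated data. The named genes are all members, the 4 largest pathway ratios past 2-fold per class and direction, and the 3 features most like each member; pathway genes named without a call or in blood cells and cluster 12, and leading genes of cluster 12, were chosen after their values were seen. Members and lists were chosen with earlier results of these data known. In all, 16 alternatives were run, 2 of them added after seeing the data.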

Additional observations from a re-analysis of the deposited data

Results flagged for a closer look

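Igfbp2 differed between the libraries in opposite directions in different cells, with log2 ratios of H2CKO over control of 2.07 in mesenchymal-like sub-cluster 1 and −2.65 in cluster 12 of the cardiomyocyte-like cells. Igfbp3 likewise had log2 ratios of 2.23 in endothelial-like sub-cluster 2 and −1.06 in epicardial-like cells. In sub-cluster 2 only 7 of 84 control cells had an Igfbp3 UMI, and the epicardial-like call held in 9 of 16 alternatives. With 1 library per genotype these differences between cell groups were not tested.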

How the results depend on the processing

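The 8 member and class pairs called lower in H2CKO numbered 6 to 9 over the 16 alternatives. The alternative of the authors' embedded cells has no erythroid-like class and compares with 7 pairs. The 2 pairs called higher numbered 2 or 3, except 0 with the filter at 100 CPM, where neither gene reaches the filter. Of the 10 pairs called, 5 kept their call in every alternative that could be run for them: Igf2 in the endothelial-, mesenchymal-, epicardial- and cardiomyocyte-like classes, and Igf2r in endothelial-like cells. Igfbp3 in epicardial-like cells kept it in 9 of 16, and Igf2r in mesenchymal-like cells lost it only without the span trend (−0.94). Igfbp2 in mesenchymal-like and Igfbp3 in endothelial-like cells lost it only with the filter at 100 CPM. With cells kept only from 1500 genes and up to 5% mitochondrial UMIs, Igf2r passed 2-fold in epicardial-like (−1.11) and cardiomyocyte-like cells (−1.07) as well. In endothelial-like cells Igf1 passed it when thinned (−1.04) or with a pseudocount of 1 CPM (−1.01), and Igfbp2 in the authors' embedded cells (1.12) or centred on the median feature (1.07). When each cell took its name from its own markers, the white blood cell-like ratio turned to 0.37 for Igf2r and 1.30 for Igfbp5; the cause was not tested. Igf2 lost its call there, at −0.67. Of 846 log2 ratios under the alternatives 42 had the other sign, 2 of them of called pairs (those given) and 40 of pairs not called. No paired analysis was possible because the labels give no replicate numbers and each genotype has 1 library.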
